A study of Mus musculus with 3 samples.

Results

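Acta2-high contractile mesenchymal cells were chosen by measured values in single-cell RNA data of ectopic tissue masses, cell by cell. A cell counted as one if Col1a1, Col1a2 and Col3a1, which encode the main fibrillar collagens of connective tissue, made up at least 1% of its UMIs, if Acta2 made up at least 0.1%, and if it held under 10 UMIs of the cartilage collagen gene Col2a1. A UMI is a molecular tag that marks 1 captured RNA molecule. The rule found 492 cells among the 21148 that had at least 500 UMIs, at least 300 genes and at most 15% mitochondrial UMIs: 70 in the antibody library, 342 in the IgG library, and 80 with Matrigel alone. The masses were harvested from CD1 mice 5 days after implantation, and each of the 3 groups gave 1 library. The antibody library came from Matrigel/rhBMP2 implants, a basement membrane gel carrying recombinant human BMP2, in mice that received the activin A neutralizing antibody labelled nAct Ab. The IgG library came from Matrigel/rhBMP2 implants in mice that received control IgG. The Matrigel library came from implants of the gel without BMP2, so the carrier gel was common to all 3 groups. The label of the Matrigel library names no IgG, and BMP2 and IgG therefore cannot be told apart between those libraries. How many animals gave cells to a library is not stated in the labels.

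Acta2 encodes alpha smooth muscle actin, the actin of smooth muscle and of myofibroblasts, the contractile fibroblasts that appear in wounds, in fibrosis and around implants. Myofibroblasts arise from fibroblasts under mechanical tension and TGF-beta signals, and activin A, a dimer of the Inhba product, signals through the same SMAD2 and SMAD3 proteins as TGF-beta. BMP2 signals through other SMAD proteins and induces cartilage and bone, which is the known outcome of such implants at later stages.

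The libraries held 38163880 UMIs for the antibody group, 46317250 for the IgG group and 44252421 for the Matrigel group. The Acta2-high cells contributed 1851596 of them in the antibody library, 7020618 in the IgG library, and 1187804 with Matrigel alone. Few cell barcodes were shared between libraries, with 7 between antibody and IgG, 16 between antibody and Matrigel and 19 between IgG and Matrigel. With 1 library a group, comparisons between groups have no replicate check, no p-value is given for them, and intervals cover counting error only.

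Acta2-high cells were 1.17% of the kept cells in the antibody library (95% Clopper-Pearson interval 0.916 to 1.48%), 5.74% in the IgG library (5.16 to 6.36%) and 0.867% in the Matrigel library (0.688 to 1.08%). Among collagen-positive cells with under 10 Col2a1 UMIs, they made up 11.3% of 618 cells in the antibody library (8.94 to 14.1%), 27.1% of 1264 in the IgG library (24.6 to 29.6%) and 3.70% of 2162 in the Matrigel library (2.94 to 4.58%). The share was thus highest in the IgG library by either denominator. Against all kept cells the antibody and Matrigel intervals overlapped, while against collagen-positive cells the antibody share was also above the Matrigel share. A dissociated mass gives shares and not numbers of cells, so a larger share and a loss of other cells cannot be told apart.

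Depth differed between the libraries as well. The median cell held 25506.5 UMIs among Acta2-high cells of the antibody library, 19850.5 in the IgG library, and 13325.5 with Matrigel alone, and the other collagen-positive cells held 18199.5, 15656 and 8784 in the same order. With every cell thinned to 2000 UMIs, Acta2-high cells were 14.6% of collagen-positive cells in the antibody library, 34.0% in the IgG library, and 6.20% with Matrigel alone, which is the same order. Cells under 1% collagen seldom reached 0.1% Acta2, with 8 of 5317 doing so in the antibody library (0.150%), 28 of 4402 in the IgG library (0.636%), and 4 of 7061 with Matrigel alone (0.0566%).

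Acta2 itself, which chose the cells, had a median share of 0.164% of UMIs in Acta2-high cells of the antibody library, 0.214% in the IgG library, and 0.156% with Matrigel alone. The highest cell held 0.501% in the antibody library, 1.32% in the IgG library, and 0.472% with Matrigel alone. The cutoff cut through a range. Just inside it, between 0.1 and 0.12%, lay 17 cells of the antibody library, 35 of the IgG library and 18 of the Matrigel library. Just outside it, between 0.08 and 0.1%, lay 20, 62 and 26 cells in the same order. At 0.2% Acta2 or more there were 19 cells in the antibody library, 184 in the IgG library, and 28 with Matrigel alone. A single Acta2 UMI carried 3 of the antibody cells and 3 of the IgG cells over the cutoff. Many cells at the low end thus differed little in Acta2 share from those left out.

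**Figure D1:**
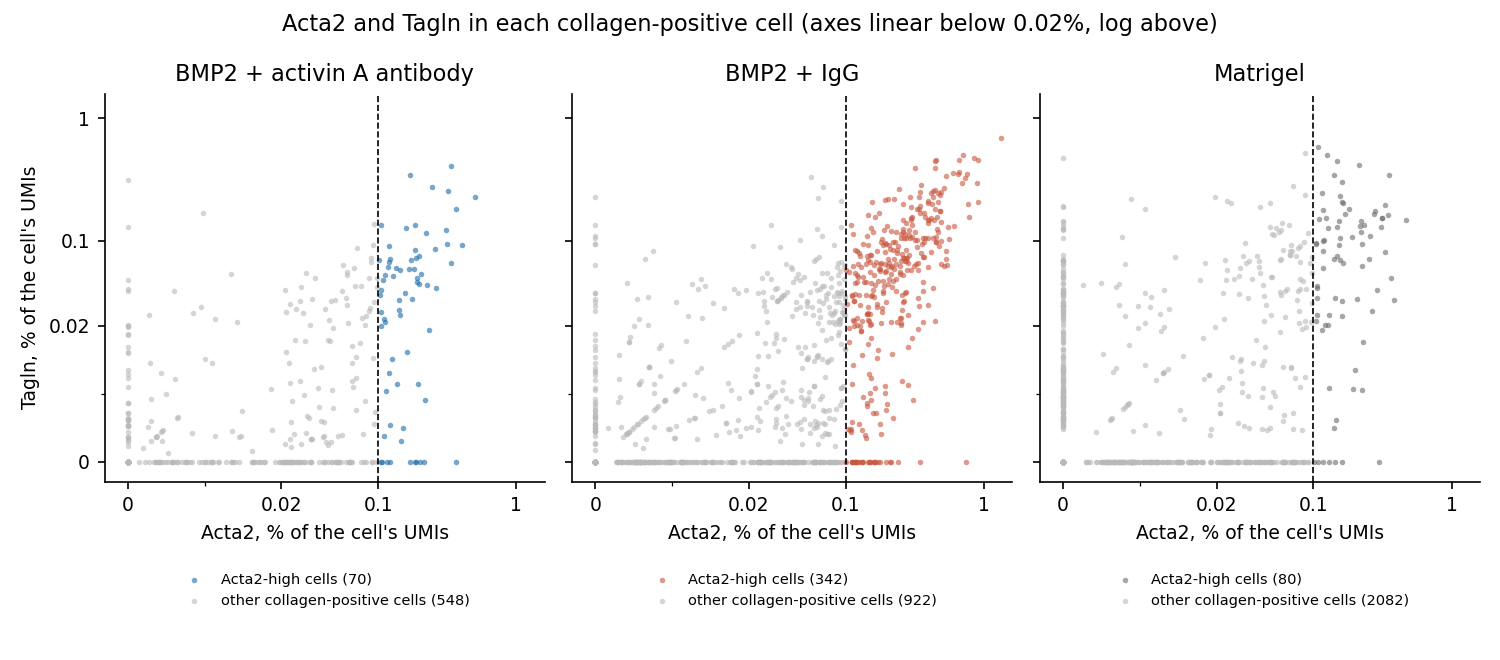
Each point is 1 collagen-positive cell of the antibody, IgG or Matrigel library, placed by the percent of its UMIs from Acta2 (horizontal) and Tagln (vertical), on axes that are linear below 0.02% and logarithmic above. Coloured points are the 70, 342 and 80 Acta2-high cells to the right of the dashed 0.1% cutoff and light grey points the other collagen-positive cells, and the cloud crosses the cutoff without a gap.

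The contractile programme moved with Acta2 in all 3 libraries. Compared with the other collagen-positive cells of their own library, Acta2-high cells carried more RNA for 21 of 25 contractile genes tested, among them transgelin, calponin, a smooth muscle myosin light chain and tropomyosins, and much less RNA for genes of Pi16-type fibroblast progenitors. UMIs were summed per library over each class of cells and compared by edgeR's quasi-likelihood test with the library as a block, with Benjamini-Hochberg adjustment over all genes tested. Since Acta2 made the split, this asks which other genes moved with it. Acta2, Col1a1, Col1a2, Col3a1 and Col2a1, which the rule used, were left out of the test. The summed Acta2 level, given as a description, was 1842, 2685 and 1893 CPM (UMIs of the gene per 1000000 UMIs of the summed cells) in Acta2-high cells of the antibody, IgG and Matrigel libraries and 194, 247 and 84.9 CPM in the others. Of 12857 genes, 182 were higher in Acta2-high cells (1.42%) and 547 lower (4.25%), and the median log2 fold change of all genes was -0.01. Without the IgG library 109 genes were higher, and without the library block 1 was higher and 1 lower. The replicates of this test are 3 libraries of 3 conditions, and its p-values measure the spread between those libraries.

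Tagln, on chromosome 9 at 45929619 to 45936058 (mm10, minus strand), encodes transgelin, an actin-bundling protein of smooth muscle. Its summed level in Acta2-high cells was 664 CPM in the antibody library, 914 in the IgG library, and 1046 with Matrigel alone, against 67.1, 110 and 76.8 CPM in the other collagen-positive cells. Every library separated by a wide margin, and the log2 fold change was 3.37 ± 0.14 (SE, n = 3 libraries), a 10.4-fold higher level (adjusted p = 6.66e-05). Myl9, the regulatory light chain of smooth muscle myosin, stood at 164, 341 and 232 CPM in Acta2-high cells and at 37.7, 40.9 and 44.5 CPM in the others, a log2 fold change of 2.54 ± 0.18 (adjusted p = 0.000386). Both named markers of these cells thus rose in every library. Scx, which encodes the tendon transcription factor scleraxis, had 15.7 CPM in the antibody library, 70.1 in the IgG library, and 50.5 with Matrigel alone in Acta2-high cells, against 6.02, 26.0 and 1.99 CPM in the others. Its level was higher in each library, but the size of the difference varied and it did not pass the test, with a log2 fold change of 2.20 ± 0.52 (adjusted p = 0.053).

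Per cell, the same order held after thinning to 2000 UMIs. Tagln was detected in 66.2% of Acta2-high cells of the antibody library, 65.2% of the IgG library and 68.4% of the Matrigel library, against 9.96, 13.3 and 7.76% of the other collagen-positive cells. In cells under 1% collagen, whose median depth was 3253, 3123.5 and 2900 UMIs, the thinned Tagln share was 0.661, 1.26 and 0.895%. Myl9 was detected in 21.5, 40.2 and 39.2% of thinned Acta2-high cells and in 8.20, 7.48 and 8.07% of the others. Scx was detected in few cells at this depth, 3.08% in the antibody library, 10.5% in the IgG library, and 6.33% with Matrigel alone, against 1.76, 4.32 and 0.156% of the others. Without thinning, Scx was found in 15.7, 44.2 and 23.8% of Acta2-high cells and in 7.66, 20.7 and 1.39% of the others. Tagln was thus found in most Acta2-high cells of each library at this depth, Myl9 in fewer and Scx in a minority. Without thinning, Tagln was found in 85.7, 91.5 and 91.3% and Myl9 in 81.4, 87.7 and 82.5% of Acta2-high cells of the antibody, IgG and Matrigel libraries, against 30.5, 40.2 and 15.4% and 33.2, 28.5 and 23.5% of the others.

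Of 25 contractile genes tested, 21 rose in Acta2-high cells and none fell, and their median log2 fold change was 0.97. At an unadjusted p under 0.05 edgeR gave 24 higher and 0 lower, and DESeq2 called 20 higher and 0 lower. Cnn1, encoding calponin of smooth muscle, had 36.2, 55.8 and 21.9 CPM in Acta2-high cells of the antibody, IgG and Matrigel libraries, against 3.86, 6.39 and 0.918 CPM in the others (log2 fold change 3.42, adjusted p = 0.000386). Actg2, the gamma actin of visceral smooth muscle, stood at 72.9, 106 and 43.8 CPM in Acta2-high cells and 7.54, 10.1 and 0.816 CPM in the others (log2 fold change 3.75, adjusted p = 0.000966). These 2 genes showed folds as large as that of Tagln at a much lower count and in fewer cells. In the Matrigel library Actg2 UMIs came from 9 of 80 Acta2-high cells, 1 of which held 59.6%, and Cnn1 UMIs from 13. Actg2 was found in 24 of 70 antibody and 126 of 342 IgG cells, and Cnn1 in 27 and 142. Tpm2, a tropomyosin that lies along the actin filament, had 1148, 1139 and 812 CPM in Acta2-high cells and 394, 332 and 147 CPM in the others (log2 fold change 1.92 ± 0.16). Csrp1, a LIM-domain protein of actin bundles, had 309, 356 and 327 CPM against 138, 114 and 87.0 CPM. Cnn2, the calponin of non-muscle cells, had 215, 438 and 533 CPM against 117, 151 and 153 CPM. The general actin machinery rose by less. Actb, cytoplasmic beta actin, had a log2 fold change of 0.77, Myh9, the heavy chain of non-muscle myosin, 0.81, Flna, the actin crosslinker filamin A, 0.98, and Vcl, the focal adhesion protein vinculin, 0.97. Actn4, Mylk, Smtn and Zyx did not pass the test, with adjusted p-values of 0.0627, 0.11, 0.0512 and 0.446. Des, encoding the muscle intermediate filament desmin, had 43.2, 50.9 and 4.21 CPM in Acta2-high cells against 16.8, 14.5 and 2.55 CPM in the others (log2 fold change 1.55, adjusted p = 0.00347), and was present in few Matrigel cells.

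**Figure D2:**
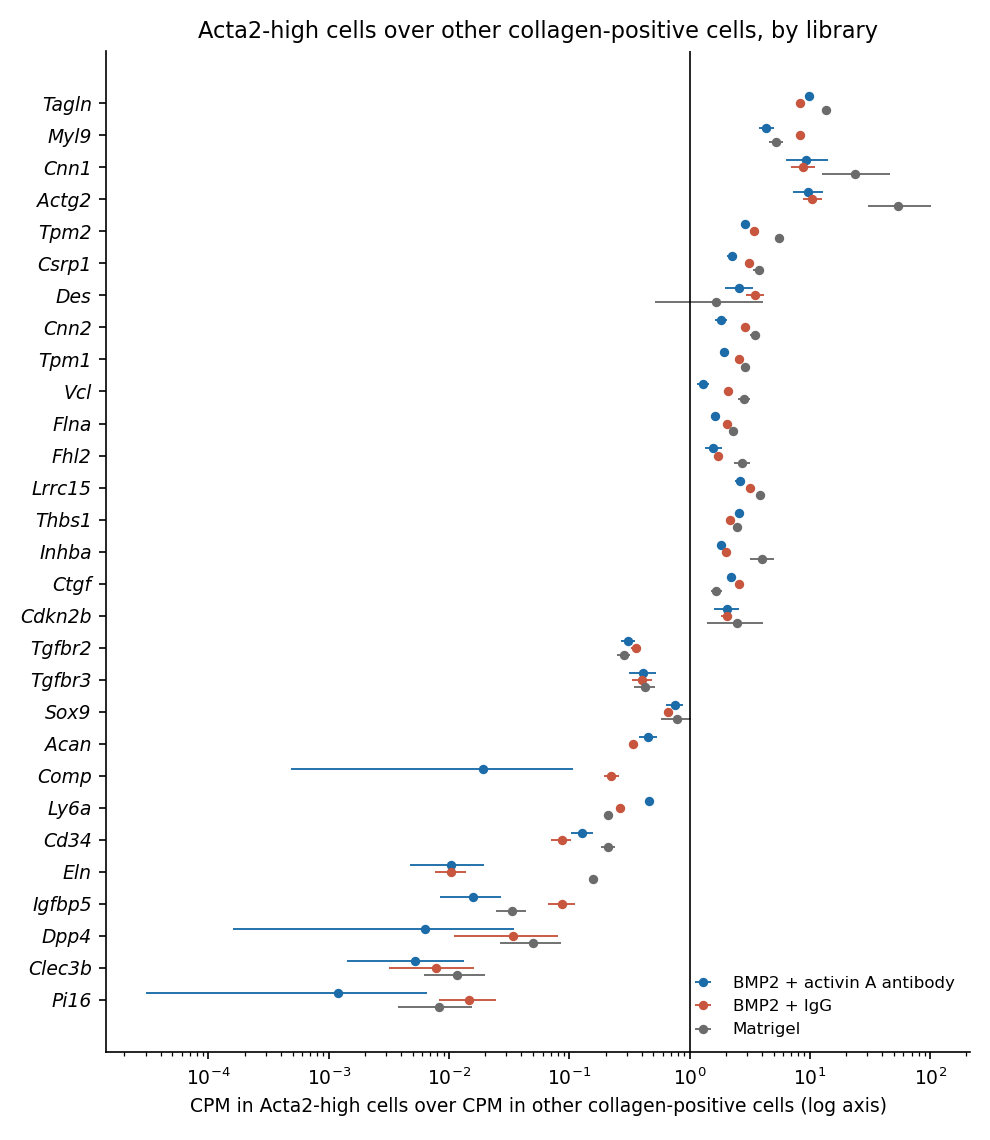
Ratio of the summed level in Acta2-high cells to that in the other collagen-positive cells, on a log axis, for each gene shown and each of the antibody, IgG and Matrigel libraries, with 95% counting intervals as bars. Contractile genes lie right of a ratio of 1 in every library, with the interval of Des in the Matrigel library reaching below 1, and fibroblast progenitor genes left of it, and the Matrigel points of Acan and Comp are left out because no UMI of either was found in the 80 Acta2-high cells.

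Many contractile genes are known targets of serum response factor, which binds the CArG box, an AT-rich motif flanked by paired C and paired G bases that reads alike on both strands. In the RefSeq promoter sequences of build GRCm38.p6, each 300 bases around a start site, an exact CArG box occurred in 488 of 27025 genes (1.81%) and in 161 of the 9905 tested genes with a sequence (1.63%). It occurred in 9 of 129 genes with a sequence among those that rose (6.98%) and in 2 of 398 among those that fell (0.503%). In the contractile list, 23 of 26 genes had a sequence and 5 held the box (21.7%): Myl9, Cnn2, Vcl, Myl6 and Fhl2. Tagln, Actg2 and Csrp2 had no sequence and were not searched. The 250 bases upstream of the start site are shown for Acta2, the gene that defined the cells, and for Myl9, Cnn2 and Vcl, which rose with it, in 5′ to 3′ direction of the gene with the CArG box in capitals. They lie at chr19:34255374-34255623 on the minus strand for Acta2, and on the plus strand at chr2:156775214-156775463 for Myl9, chr10:79988350-79988599 for Cnn2 and chr14:20929148-20929397 for Vcl.
Acta2: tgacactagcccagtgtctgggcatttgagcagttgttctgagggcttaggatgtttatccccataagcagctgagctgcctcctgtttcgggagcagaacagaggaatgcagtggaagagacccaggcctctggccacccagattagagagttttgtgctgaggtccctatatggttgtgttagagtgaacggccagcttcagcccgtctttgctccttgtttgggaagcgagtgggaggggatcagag
Myl9: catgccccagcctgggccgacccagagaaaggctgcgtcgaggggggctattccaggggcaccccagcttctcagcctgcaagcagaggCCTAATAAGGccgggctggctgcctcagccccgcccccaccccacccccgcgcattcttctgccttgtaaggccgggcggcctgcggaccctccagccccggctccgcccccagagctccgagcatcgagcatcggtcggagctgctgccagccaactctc
Cnn2: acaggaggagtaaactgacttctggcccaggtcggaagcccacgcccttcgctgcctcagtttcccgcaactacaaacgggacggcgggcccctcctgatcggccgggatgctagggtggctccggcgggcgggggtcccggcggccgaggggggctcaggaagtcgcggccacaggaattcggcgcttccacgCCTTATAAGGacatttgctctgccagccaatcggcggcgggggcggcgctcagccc
Vcl: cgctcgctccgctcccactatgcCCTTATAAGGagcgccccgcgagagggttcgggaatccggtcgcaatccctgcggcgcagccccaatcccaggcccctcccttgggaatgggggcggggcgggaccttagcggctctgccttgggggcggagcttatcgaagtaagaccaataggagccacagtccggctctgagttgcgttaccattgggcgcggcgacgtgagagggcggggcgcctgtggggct
The first base of the box lies at -161 in Myl9, -56 in Cnn2 and -227 in Vcl, counted from the start site. The Acta2 window holds no exact match, which says only that these letters are not in this window. A match is a description of the sequence and was not tested for binding.

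Within collagen-positive cells, Tagln followed the Acta2 share across the whole range, on both sides of the cutoff. Myl9 did so in the IgG and Matrigel libraries, and in the antibody library it followed the Acta2 share above the cutoff only. In the IgG library Tagln stood at 22.4 CPM in the 389 cells with no Acta2 UMI, 150 CPM in the 533 cells under 0.1%, 438 CPM in the 158 cells at 0.1 to 0.2%, 1113 CPM in the 159 cells at 0.2 to 0.5% and 2687 CPM in the 25 cells at 0.5% or more. In the antibody library Tagln stood at 16.2, 98.5, 472 and 1098 CPM over the first 4 of these bins, of which the highest held 18 cells, and 1 cell lay above them. In the Matrigel library it stood at 28.4, 201, 994 and 1139 CPM, with 28 cells in the highest bin and none above. Tagln thus climbed stepwise in each library, with the last Matrigel step within overlapping counting intervals for 0.1 to 0.2% (925 to 1068) and 0.2 to 0.5% (1040 to 1245). Myl9 in the IgG library had 16.0, 52.3, 150, 445 and 891 CPM over the 5 bins. In the antibody library it had 39.3 CPM with no Acta2 UMI and 36.7 CPM under 0.1%, which do not differ beyond counting error, then 118 and 276 CPM. Matrigel cells had 34.9, 69.3, 179 and 328 CPM of Myl9 over the first 4 bins. Scx climbed in the IgG library, with 16.2, 30.5, 39.4, 87.3 and 154 CPM, and in the Matrigel library, with 0.639, 5.44, 30.3 and 86.6 CPM. In the antibody library it had 29 UMIs in 11 of 70 Acta2-high cells, and its bins are not given here. Inhba did not keep climbing. In the IgG library it had 367, 631, 1021, 1209 and 910 CPM over the 5 bins, so that the cells with the most Acta2 were below those of the bin before. Pi16 behaved the other way round. It had 393 CPM in IgG cells with no Acta2 UMI, 31.3 CPM in those under 0.1% and at most 4.16 CPM in the 3 bins above the cutoff.

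**Figure D3:**
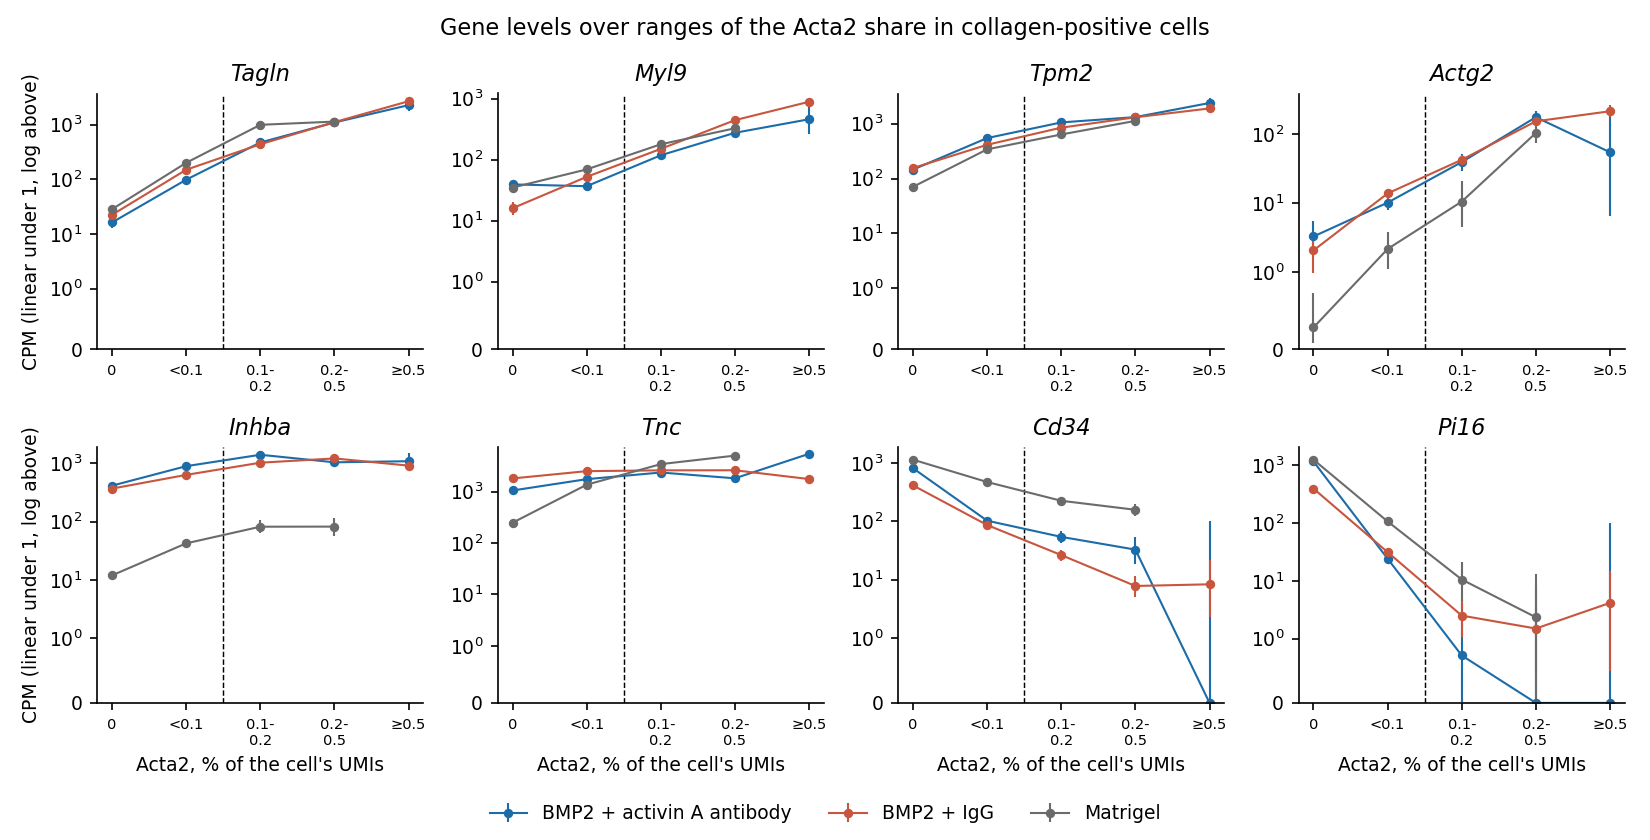
Summed level of single genes (CPM, linear under 1 and logarithmic above) over bins of the Acta2 share of collagen-positive cells, with exact 95% Poisson intervals for the antibody, IgG and Matrigel libraries. Tagln climbs with Acta2 in every library, while Pi16 drops to the left of the dashed 0.1% cutoff already, and the bins at 0.2 to 0.5% and above hold 18 and 1 cells in the antibody library.

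Genes of fibroblast progenitors, the Pi16- and Dpp4-expressing cells of loose connective tissue, were lower in Acta2-high cells. Of 20 tested, 16 fell and none rose, with a median log2 fold change of -2.10. At an unadjusted p under 0.05 edgeR gave 19 lower and 0 higher, and DESeq2 called 18 lower and 0 higher. Pi16, encoding a secreted peptidase inhibitor, had 0.540, 2.14 and 7.58 CPM in Acta2-high cells of the antibody, IgG and Matrigel libraries, against 456, 145 and 923 CPM in the others (log2 fold change -6.91 ± 0.32, adjusted p = 6.66e-05). Clec3b, encoding tetranectin, had 2.16, 0.997 and 10.9 CPM against 412, 127 and 942 CPM (log2 fold change -6.87 ± 0.18, adjusted p = 6.46e-06). Dpp4, a cell surface peptidase, had 0.540, 0.712 and 10.9 CPM against 86.1, 20.9 and 220 CPM. These genes were close to absent from Acta2-high cells of the antibody and IgG libraries and faintly present in the Matrigel library. Eln, which encodes elastin, was lower in another pattern, with 4.86, 6.55 and 627 CPM in Acta2-high cells against 470, 627 and 3969 CPM in the others (log2 fold change -4.80 ± 0.73, adjusted p = 0.00943). Its level in Acta2-high cells was near 0 in both BMP2 libraries but not in the Matrigel library, where 68.3% of the UMIs came from 5 cells. Efemp1, Igfbp5, Itih5, Tnxb, Saa3 and C3 were the other genes with the largest falls, with log2 fold changes between -5.60 and -4.15. C3, a complement component, had 22.1, 12.4 and 96.8 CPM in Acta2-high cells and 712, 348 and 678 CPM in the others.

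Matrix genes tied to myofibroblasts split. Of 29 tested, 9 rose and 2 fell, with a median log2 fold change of 0.30. Lrrc15, a membrane protein used as a marker of activated fibroblasts, had 426, 402 and 999 CPM in Acta2-high cells and 164, 126 and 259 CPM in the others (log2 fold change 1.67 ± 0.12, adjusted p = 0.000386). Thbs1, encoding the matricellular protein thrombospondin 1, which can release TGF-beta from its latent form, had 715, 865 and 515 CPM against 279, 398 and 207 CPM (log2 fold change 1.26 ± 0.09, adjusted p = 0.000455). Thbs2, Col8a1, Adam12, Aspn, Cthrc1 and Col5a1 rose by smaller amounts, at log2 fold changes of 0.80, 0.97, 0.78, 0.74, 0.51 and 0.36. Fn1, encoding fibronectin, and Fap, a fibroblast peptidase, fell, with log2 fold changes of -0.47 and -1.73. Postn, encoding periostin, did not pass (3242, 3355 and 4326 CPM against 2860, 4111 and 2557 CPM, adjusted p = 0.555). Enpp1, which makes the mineralization inhibitor pyrophosphate, also rose, with 221, 121 and 147 CPM in Acta2-high cells against 104, 79.9 and 28.9 CPM in the others (log2 fold change 1.29, adjusted p = 0.0345). Without cells holding a UMI of a strict mural gene (Rgs5, Kcnj8, Abcc9, Higd1b, Vtn, Myh11, Pln or Mcam), a choice made after seeing the data, its log2 fold change was 1.05 and it no longer passed the test.

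Ligands and receptors of the TGF-beta family moved in both directions. Of 35 tested, 4 rose and 5 fell, with a median log2 fold change of -0.05. Inhba, the gene for the activin A subunit, lies on chromosome 13 at 16011851 to 16031621 (mm10, plus strand). It had 1302, 1103 and 81.7 CPM in Acta2-high cells of the antibody, IgG and Matrigel libraries, against 708, 548 and 20.5 CPM in the others (log2 fold change 1.23 ± 0.18, adjusted p = 0.00866). It was higher in Acta2-high cells within every library and far lower in the Matrigel library than in the other libraries in both classes. After thinning, an Inhba UMI was found in 61.5, 57.4 and 10.1% of Acta2-high cells, in 32.0, 35.0 and 3.02% of the others and in 0.826, 1.58 and 0.0389% of cells under 1% collagen. Without thinning the share in Acta2-high cells was 85.7, 90.1 and 36.3%. Tgfb2, a TGF-beta ligand, rose to 225, 194 and 74.1 CPM, against 129, 135 and 55.1 CPM in the others (log2 fold change 0.60, adjusted p = 0.0223). Bmpr1b, a BMP receptor, rose as well. Fst, encoding the activin antagonist follistatin, fell, with 49.7, 67.1 and 90.1 CPM in Acta2-high cells and 94.5, 88.3 and 142 CPM in the others (log2 fold change -0.64, adjusted p = 0.0262). Tgfbr2, the type II TGF-beta receptor, fell to 122, 80.6 and 232 CPM, against 395, 227 and 816 CPM in the others (log2 fold change -1.67, adjusted p = 0.000328), and the co-receptor Tgfbr3, Bmp6 and Gdf10 fell too. The activin receptors Acvr1b, Acvr2a and Acvr2b did not pass the test and were all under 20 CPM.

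Some targets of these pathways passed the test. Of 17 known SMAD2/3 targets tested, 4 rose (against 1.42% of all genes), among them Ctgf, Cdkn2b and Tgfb1i1, and Ltbp3 fell, with a median log2 fold change of 0.21. Ctgf, encoding connective tissue growth factor, had 619, 382 and 304 CPM in Acta2-high cells and 280, 147 and 182 CPM in the others (log2 fold change 1.09, adjusted p = 0.00435). Cdkn2b, encoding the cell cycle inhibitor p15, had 49.1, 96.7 and 15.2 CPM against 24.2, 47.4 and 6.17 CPM. Of 21 targets or cofactors of SRF and YAP, 5 rose, namely Ctgf, Cyr61, Actb, Actg1 and Tgfb1i1, and none fell by edgeR, while DESeq2 and an unadjusted p under 0.05 each gave 1 lower. Of 14 BMP targets, Bmper fell and none rose by edgeR or DESeq2, with 1 higher at an unadjusted p under 0.05 and a median log2 fold change of -0.08. Among adhesion receptors, Itga5 and Itgb1, the integrin subunits that bind fibronectin, and Ncam1 rose, while Thy1 and Itga2 fell, of 20 tested. Among growth factors and receptors, Pdgfc and Nrg1 rose and Pdgfra, Pdgfd, Fgf2, Fgf7 and Wnt2 fell, of 27 tested. Of 18 immediate early genes, Dusp1, Socs3, Klf2 and Klf4 fell and none rose by edgeR or DESeq2, with 10 lower and 0 higher at an unadjusted p under 0.05. No proliferation gene passed the test in either direction of 22 tested, nor did any of 19 hypoxia and glycolysis genes. At an unadjusted p under 0.05, edgeR gave 3 proliferation genes higher and 1 lower and 0 of the hypoxia genes, and DESeq2 called 0 genes of either list at its adjusted p.

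Genes of a marker list for pericytes and vascular smooth muscle, kept apart from the contractile list, did not rise by edgeR. Des, which stood on both the contractile and the skeletal muscle list, rose. Of 10 genes tested from a mural list, covering pericytes and vascular smooth muscle, none rose and Kcnj8, Abcc9 and Vtn fell by edgeR. Rgs4 was higher at an unadjusted p under 0.05 (log2 fold change 0.94, adjusted p = 0.0635) and was called as 1 higher gene by DESeq2. Summed over the list, Acta2-high cells had 1382, 1009 and 788 CPM in the antibody, IgG and Matrigel libraries, against 1214, 1402 and 630 CPM in the others, and most of it came from Ndufa4l2 with 1132, 774 and 593 CPM in Acta2-high cells. Rgs5, a defining pericyte gene, was at 0, 0.142 and 0 CPM in Acta2-high cells, and Myh11, the smooth muscle myosin heavy chain, had 0, 8 and 1 UMIs in all. Of 8 tendon genes tested, Scx among them, Htra3 fell and none rose by edgeR or DESeq2, with 3 higher at an unadjusted p under 0.05 by edgeR. Of the 16 cartilage genes tested, 11 fell and none rose, with a median log2 fold change of -1.46, and DESeq2 called 5 lower and 0 higher. At an unadjusted p under 0.05 edgeR gave 13 lower and 0 higher. The rule had already removed cells with 10 or more UMIs of the cartilage gene Col2a1 from both classes. Acan, encoding aggrecan, had 85.3, 272 and 0 CPM in Acta2-high cells and 189, 800 and 0.0510 CPM in the others (log2 fold change -1.35, adjusted p = 0.00156), and Sox9, the master regulator of cartilage, 90.7, 240 and 42.1 CPM against 120, 365 and 54.1 CPM (log2 fold change -0.47, adjusted p = 0.0388). Of 12 bone genes, Alpl, Tnfrsf11b and Mef2c fell and none rose. At an unadjusted p under 0.05 edgeR gave 1 bone gene higher, and DESeq2 called none higher. Macrophage markers gave no call among 14 tested by either tool, with 1 lower at an unadjusted p under 0.05. Their summed level was 352, 405 and 923 CPM in Acta2-high cells and 389, 403 and 1179 CPM in the others, against 24025, 23497 and 29144 CPM in cells under 1% collagen. Of the remaining marker lists, 2 of 8 endothelial, 2 of 4 adipocyte and 1 of 3 mesothelial genes fell. Des rose among 5 skeletal muscle genes and Ncam1 rose among 4 Schwann cell genes, and none of either list fell. None of 4 lymphoid genes passed by edgeR or DESeq2, with 1 higher at an unadjusted p under 0.05.

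Between the BMP2 libraries, Acta2-high cells of the antibody library held less cartilage gene RNA than those of the IgG library. Ratios are of summed CPM, antibody over IgG, and a gene counted as higher or lower when its ratio passed 1.5 either way and 1 library or both held at least 10 of its UMIs. Of 11915 genes with that depth, 864 were higher (7.25%) and 2109 lower (17.7%) in the antibody library, and the median log2 ratio was -0.08. In the other collagen-positive cells 8.91% of 13473 genes were higher and 11.5% lower.

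Of 25 contractile genes, none was higher and 6 were lower in Acta2-high cells of the antibody library, with a median log2 ratio of -0.32, against -0.09 in the other collagen-positive cells. With 17.7% of all genes lower, that share was near the background. Myl9 stood at 164 CPM in the antibody library and 341 CPM in the IgG library, a ratio of 0.481 (95% interval 0.425 to 0.542), while its ratio in the other collagen-positive cells was 0.923. Cnn2 had a ratio of 0.491 (0.441 to 0.545) and the kinase gene Mylk 0.257 (0.155 to 0.404). Cnn1, Actn1 and Lmod1 were the remaining 3, and Lmod1 rests on few UMIs. Tagln stayed within the fold limit at a ratio of 0.727 (0.683 to 0.772), and Tpm2 was level at 1.01. Scx had 15.7 CPM in the antibody library and 70.1 CPM in the IgG library, a ratio of 0.223 (0.148 to 0.325), with 0.231 in the other cells. The Acta2 share within the class differed in the same direction, with 19 of 70 Acta2-high cells at 0.2% or more in the antibody library and 184 of 342 in the IgG library, and its part in these ratios was not tested.

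Of 16 cartilage genes, none was higher and 15 were lower in Acta2-high cells of the antibody library, with a median log2 ratio of -2.06, or -1.78 with genes at 0 in 1 library set to a floor of 3 UMIs. The median in the other collagen-positive cells was -1.63. The count of lower genes includes Cnmd, Hapln1 and Sox6, which had no UMI in Acta2-high cells of the antibody library. They had enough UMIs only in the IgG library, whose Acta2-high cells held more UMIs in all. With the antibody library set to the floor, they were at least 1.23-fold, 2.11-fold and 3.69-fold lower. The bound of Cnmd is under the 1.5-fold limit, so its place in the count is not secured. Acan had 85.3 CPM in the antibody library and 272 CPM in the IgG library, a ratio of 0.314 (0.265 to 0.369). Sox9 had 90.7 and 240 CPM in the same order, a ratio of 0.379 (0.321 to 0.444), and was detected in 45 of 70 and 264 of 342 cells. Col11a1, a cartilage fibril collagen, had 29.2 CPM in the antibody library and 411 CPM in the IgG library, a ratio of 0.0710 (0.0532 to 0.0930), against 0.260 in the other cells. The cartilage signal in Acta2-high cells of the antibody library sat in few cells, since 5 cells held 96.8% of Acan UMIs and 96.3% of Col11a1 UMIs there. Ibsp, encoding bone sialoprotein, had 18.9 and 331 CPM, a ratio of 0.0571 (0.0397 to 0.0797). Its ratio in the other cells was 0.791. Only 4 of 70 antibody cells held an Ibsp UMI, against 105 of 342 IgG cells, and without the cell richest in Ibsp of each library the ratio was 0.00963. Of 12 bone genes, 2 were higher and 7 lower, and Spp1, encoding osteopontin, was higher at 602 CPM against 319 CPM. The Spp1 UMIs of the antibody library came from 26 of 70 cells, and 5 cells held 72.2% of them.

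The highest ratio belonged to Cck, encoding the peptide hormone cholecystokinin, with 268 CPM in Acta2-high cells of the antibody library and 0.142 CPM, 1 UMI, in the IgG library. The ratio was 1884 (337 to 74580), and 609 in the other collagen-positive cells, so the difference was not confined to Acta2-high cells. Its 497 UMIs came from 18 of 70 cells, and the Matrigel library had 5.05 CPM. Spon2, encoding a secreted matrix protein, had 103 CPM in the antibody library and 9.40 CPM in the IgG library, with a ratio interval of 8.25 to 14.7, against a ratio of 2.51 in the other cells, and Ackr3, an atypical chemokine receptor, 6.20 (5.06 to 7.63) against 2.78. Cd44, the hyaluronan receptor, had 585 CPM in the antibody library and 179 CPM in the IgG library, a ratio of 3.26 (3.01 to 3.54). Tppp3, Aqp1, Prg4, Tnfaip6 and Lbh had ratios between 2.97 and 3.87. Among cells with at least 0.2% Acta2 the log2 ratio turned to -1.64 for Prg4 and -0.28 for Lbh. Over all 70 Acta2-high cells of the antibody library, 5 cells held 82.3% of the Prg4 UMIs. Ccl2, a chemokine, had a ratio of 3.87 (3.39 to 4.41), but 1 antibody cell held 76.5% of its UMIs there, and the ratio without the richest cell of each library was 1.41. Hba-a1 and Hbb-bs, the haemoglobin genes of red cells, had the ratios 0.0459 and 0.0646. A single IgG cell held 97.3 and 96.4% of their UMIs there, and without the richest cell of each library Hbb-bs stood at 13.7 CPM in the antibody library and 8.57 CPM in the IgG library. Lum, Sfrp1, Pdgfrl and Clec11a were the other genes with the lowest ratios, between 0.254 and 0.381.

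The activin and TGF-beta genes moved in no common direction. Inhba, whose product the antibody neutralizes, was at 1302 CPM in the antibody library and 1103 CPM in the IgG library, a ratio of 1.18 (1.13 to 1.24). The richest antibody cell held 20.2% of the Inhba UMIs there and the top 5 cells 48.3%, against 3.53 and 15.5% in the IgG library. The part of these cells in the ratio was not tested. Of 17 SMAD2/3 targets, 3 were higher and 3 lower, against 7.25% of all genes higher and 17.7% lower. The share of targets lower was near that background, and the median log2 ratio of the targets was 0.17. Among cells with at least 0.2% Acta2 that median was -0.18. Ctgf was higher (ratio 1.62, 1.51 to 1.74), and Cdkn2b was lower (0.508, 0.404 to 0.633). For Ctgf the richest antibody cell held 18.4% of the UMIs there and the top 5 cells 49.8%, against 4.55 and 16.7% in the IgG library. Whether the Ctgf ratio passes the fold limit without that cell was not tested. Igf1, encoding a growth factor, had 3.78 CPM in the antibody library and 28.2 CPM in the IgG library, a ratio of 0.134 (0.0532 to 0.281). Il11, a cytokine of fibroblasts, was higher at 82.6 CPM against 27.8 CPM, with 60.1 and 54.4% of its UMIs in the top 5 cells of these libraries. Fibroblast progenitor genes were higher in 9 and lower in 4 of 16 genes, with a median log2 ratio of 0.69, against 1.02 in the other cells. Immediate early genes, which tissue dissociation also induces, were higher in 12 and lower in none of 18, with a median log2 ratio of 0.77, and 0.94 in the other cells. Their part in the other differences was not tested. Of 14 macrophage markers 1 was higher and 6 lower.

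**Figure D4:**
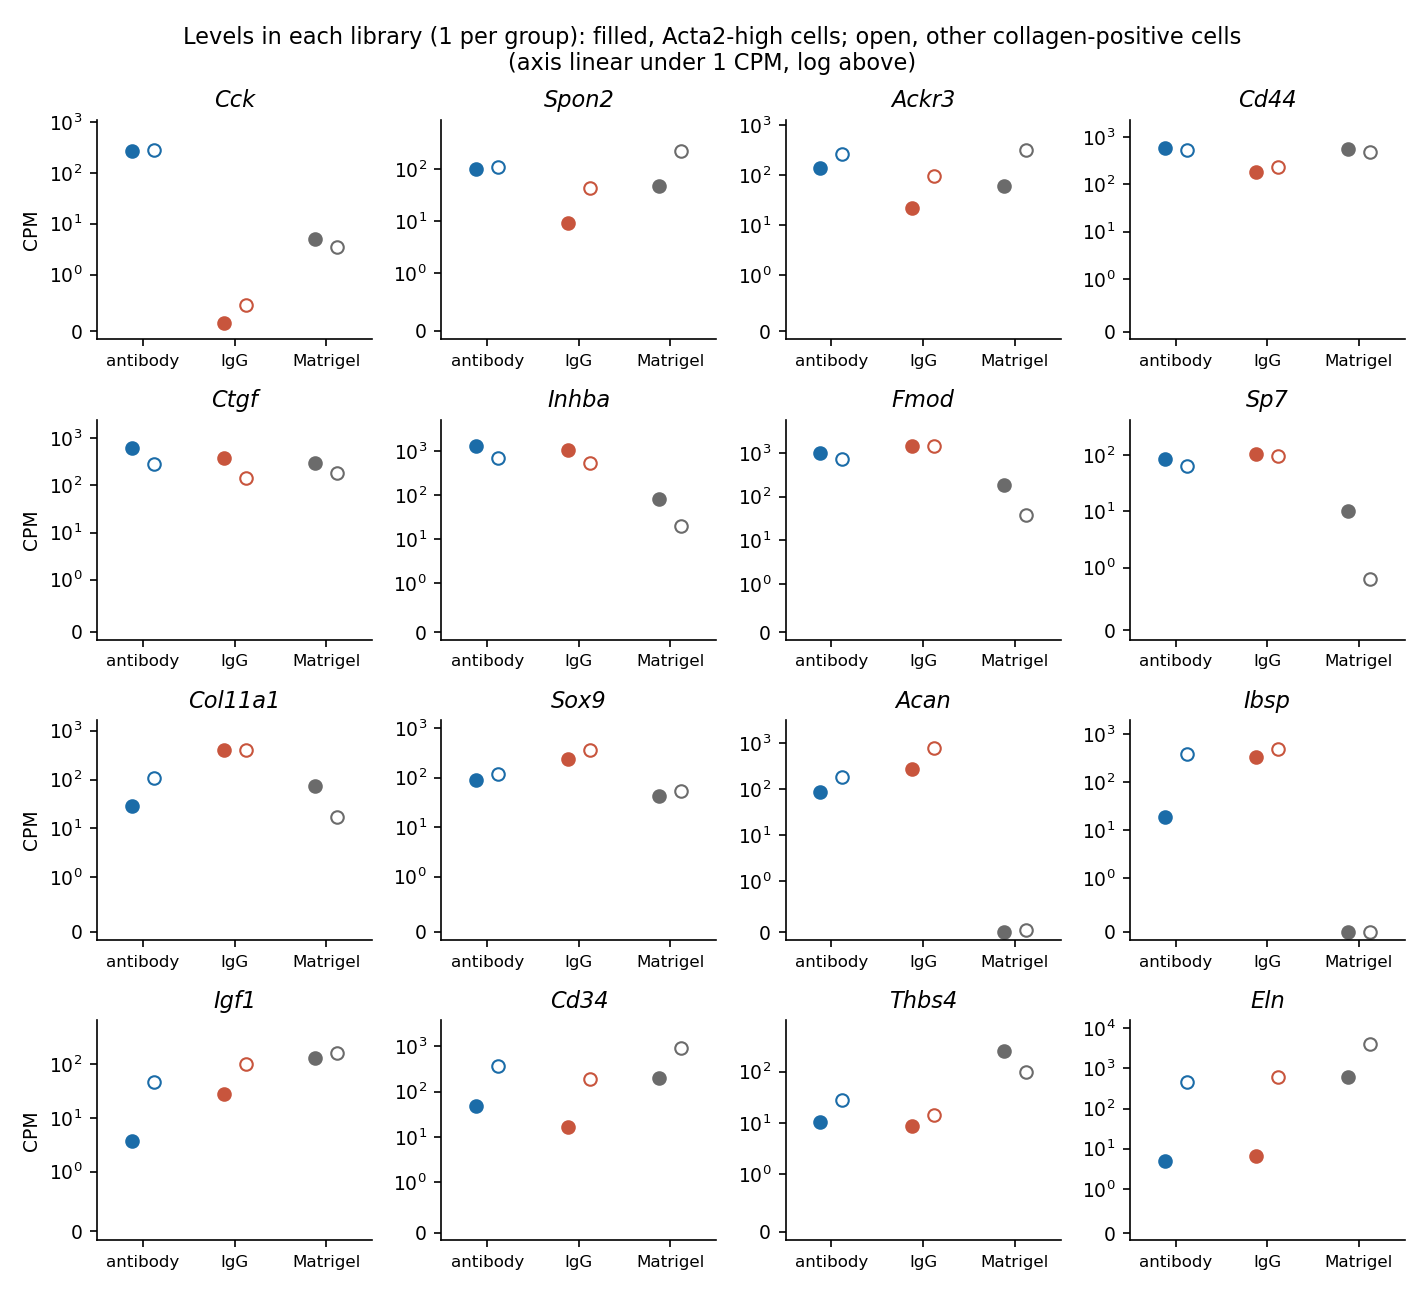
Summed level in Acta2-high cells and in the other collagen-positive cells (CPM, linear under 1 and logarithmic above) for single genes in the antibody, IgG and Matrigel libraries, with filled points for Acta2-high cells and open points for the others. Acan and Ibsp are highest in the IgG library and Inhba is low in the Matrigel library in both classes of cells, while Cck is high in the antibody library in both.

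Compared with Matrigel alone, Acta2-high cells of the IgG library held more RNA of cartilage genes and of Inhba, and less RNA of fibroblast progenitor genes. Bone genes were higher in 7 and lower in 2 of 12. Most contractile genes stayed within the fold limit. Of 11929 genes with enough UMIs, 1767 were higher (14.8%) and 1840 lower (15.4%) in the IgG library, with a median log2 ratio of -0.09. Of 25 contractile genes, 3 were higher and 1 lower, with a median log2 ratio of 0.11, against 0.45 in the other collagen-positive cells. Tagln had a ratio of 0.873 (0.821 to 0.928), Tpm1 1.08 and Myl9 1.47 (1.30 to 1.67). Des, Cnn1 and Actg2 were the higher genes, and Des had a ratio of 12.1 (5.13 to 37.4) that rests on 5 Matrigel UMIs. Zyx, encoding the focal adhesion protein zyxin, was the lower gene.

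All 16 cartilage genes with enough UMIs were higher in the IgG library, but 9 of them had no UMI in the Matrigel library. Those 9 reached 10 UMIs only in the IgG library, whose Acta2-high cells held more UMIs in all. With the Matrigel library set to a floor of 3 UMIs, the IgG over Matrigel ratios of Cnmd, Hapln1 and Susd5 were 0.790, 1.35 and 1.47. These 3 are under the 1.5-fold limit. Acan had 272 CPM in Acta2-high cells of the IgG library and no UMI in the Matrigel library, at least 108-fold higher against a floor of 3 UMIs for that library. The bone list had a median log2 ratio of 0.69, or 0.87 with the 3 genes at 0 in the Matrigel library set to the floor, and 1.78 in the other collagen-positive cells. Summed over the list, Acta2-high cells had 1084 CPM in the IgG library and 616 CPM with Matrigel alone, of which Spp1 gave 319 and 397 CPM. Ibsp had 331 CPM and no UMI, at least 131-fold higher, Comp was at least 12.3-fold and Alpl at least 11.3-fold higher. The median log2 ratio of the cartilage list was 2.48, or 2.51 with the 9 genes at 0 in 1 library set to the floor, and 5.16 in the other collagen-positive cells. Sp7, encoding the bone transcription factor osterix, had 105 CPM in the IgG library, against 10.1 CPM in the Matrigel library, a ratio of 10.4 (5.93 to 20.3). In the other cells the Sp7 ratio was 119. The Matrigel Sp7 UMIs, 12 in all, came from 4 of 80 cells, and the IgG UMIs from 226 of 342. Inhba had 1103 CPM in the IgG library, against 81.7 CPM in the Matrigel library, a ratio of 13.5 (11.1 to 16.7), and 26.8 in the other cells. Fmod, encoding the small matrix proteoglycan fibromodulin, had 1438 and 188 CPM, a ratio of 7.66 (6.71 to 8.79), against 37.5 in the other cells. Slc26a2, a sulfate transporter of cartilage, Hspb1, a small heat shock protein, and Edil3, an integrin ligand, followed at ratios of 9.65, 8.31 and 6.81. Hba-a1 and Hbb-bs also had high ratios, and without the richest cell of each library Hbb-bs stood at 8.57 CPM in the IgG library, against 1.72 CPM in the Matrigel library, a ratio of 4.98 that rests on 2 Matrigel UMIs. For several of these genes the Matrigel level was higher in Acta2-high cells than in the other cells, as for Fmod (188 CPM against 38.1 CPM) and Sp7 (10.1 CPM against 0.816 CPM).

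The lowest ratio was that of Eln, with 6.55 CPM in Acta2-high cells of the IgG library and 627 CPM in the Matrigel library, a ratio of 0.0104 (0.00758 to 0.0141), against 0.158 in the other cells. Igfbp2, a carrier of insulin-like growth factors, had a ratio of 0.0107, but 13 of 80 Matrigel cells held its UMIs and 5 of them held 87.3%. Meox1, a homeobox transcription factor of activated fibroblasts, had 7.83 CPM in the IgG library, against 365 CPM in the Matrigel library, a ratio of 0.0214 (0.0159 to 0.0284), and was found in 16 of 342 and 58 of 80 cells. Thbs4, a thrombospondin of tendon, had 8.83 and 248 CPM, a ratio of 0.0357 (0.0267 to 0.0471). Nov, Tril, Rarres2, Cd34, Ccl2 and the BMP antagonist gene Grem1 had ratios between 0.0323 and 0.0993. Fibroblast progenitor genes were higher in none and lower in 16 of 18, with a median log2 ratio of -2.06, and -2.18 in the other cells. Immediate early genes were higher in none and lower in 14 of 18 (median log2 ratio -1.28, and -1.43 in the other cells), and macrophage markers were higher in 1 and lower in 12 of 14 (median -1.13). The part of these groups in the other differences was not tested.

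Some differences between IgG and Matrigel had another size or direction in Acta2-high cells than in the other collagen-positive cells. Tnc, encoding tenascin C, a matrix protein of wounds and tendons, had 2283, 2542 and 4002 CPM in Acta2-high cells of the antibody, IgG and Matrigel libraries, against 1483, 2284 and 562 CPM in the other collagen-positive cells. Its IgG over Matrigel ratio was 0.635 (0.615 to 0.656) in Acta2-high cells and 4.07 in the others. Spp1 had 319 CPM in the IgG library, against 397 CPM in the Matrigel library in Acta2-high cells, and 5 of 80 Matrigel cells held 94.1% of its UMIs there, while the other cells had 492 CPM in the IgG library and 72.9 CPM with Matrigel alone. Of 22 proliferation genes, none was higher and 1 lower in Acta2-high cells (median log2 ratio -0.07), whereas 12 were higher in the other cells (median 0.69). Of 19 hypoxia and glycolysis genes, 1 was higher and 2 lower in Acta2-high cells (median -0.06), whereas 15 were higher in the other cells (median 0.94). These differences between the classes of cells were not tested, since each group has 1 library.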

How the data were processed

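Cells of 3 ectopic mass libraries were captured with the 10x 3′ v3 kit (labels' protocols). Cell Ranger 3.0.2 and mm10 appear in the submitters' processing notes, without an annotation release or cell calling settings. The files as deposited hold counts of UMIs, whole numbers that sum to a different total in each library and were not normalized. Cells needed at least 500 UMIs, at least 300 genes and at most 15% mitochondrial UMIs. Doublets were kept as in the rule; Scrublet in scanpy 1.11.5 called 9, 7 and 4 cells of the antibody, IgG and Matrigel libraries, and its highest scores were removed in an alternative. The Acta2-high cells and the gene lists were chosen with earlier results of these data known.

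Counts were summed per library and class. Acta2-high cells were compared with the other collagen-positive cells by edgeR 4.0.16 in R 4.3.3 (TMM scaling, filterByExpr, quasi-likelihood F test, library as block), with calls at an adjusted p under 0.05; each pair of sums comes from the same library, which is where the pairing comes from. The procedure was tested on simulated data. DESeq2 1.42.0 was an alternative. Ratios between libraries used CPM of the sums with exact conditional binomial 95% intervals, a fold of 1.5 and at least 10 UMIs in 1 library.

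Genes were named by rule: the 10 highest and 10 lowest called genes with at least 100 CPM in 1 class and the same direction in all libraries, the 10 highest and 10 lowest ratios at 100 CPM or more with levels of at least 10% of those in cells under 1% collagen, and members of the lists; some of these genes are not reported here, although the list counts include them. Alternatives varied the Acta2 and collagen cutoffs, depth, doublets, scaling, filters and fold, and left out each library. Removal of cells with strict mural genes and of the cell richest in a gene was added after seeing the data. Promoter sequences are from RefSeq, build GRCm38.p6.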

Additional observations from a re-analysis of the deposited data

Results flagged for a closer look

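For 5 of the named genes, the ratios passed 1.5-fold in opposite directions in Acta2-high cells and in the other collagen-positive cells. Genes with a smaller ratio in either class were not counted, such as Tagln, with IgG over Matrigel ratios of 0.873 in Acta2-high cells and 1.43 in the others. None of these differences was tested, since each group has 1 library. Tnc had an IgG over Matrigel ratio of 0.635 in Acta2-high cells and 4.07 in the others. Rgs4, which encodes a regulator of G protein signalling, had a ratio of 0.585 in Acta2-high cells and 1.56 in the others for the same libraries. Hk2, encoding hexokinase 2, had 0.601 in Acta2-high cells and 1.65 in the others. For antibody over IgG, Hba-a1 had a ratio of 0.0459 in Acta2-high cells and 2.04 in the others, and Hbb-bs had 0.0646 and 7.48 in the same order. For these haemoglobin genes the ratio in Acta2-high cells rests on 1 IgG cell, and without the richest cell of each library Hba-a1 stood at 4.36 CPM in the antibody library and 2.86 CPM in the IgG library, and Hbb-bs at 13.7 and 8.57 CPM.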

How the results depend on the processing

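The share of Acta2-high cells among collagen-positive cells kept the order IgG, antibody, Matrigel under every cutoff tried. For antibody, IgG and Matrigel it was 20.7, 40.4 and 7.77% at an Acta2 cutoff of 0.05%, 3.07, 14.6 and 1.30% at 0.2%, and 14.6, 34.0 and 6.20% with thinned cells. Without cells with 2 or more mural genes, which removed 57 of the 70 antibody, 269 of the 342 IgG and 63 of the 80 Matrigel cells, it was 6.53, 27.0 and 1.25%. That removal also took many of the other cells, leaving 199 of 618, 270 of 1264 and 1357 of 2162 collagen-positive cells. Removing cells with strict mural genes took 3, 15 and 4 Acta2-high cells in the same order, and the Matrigel share was then 4.77%. The calls between Acta2-high and other cells numbered 309 higher and 891 lower with no filter on low counts, and 1 higher and 1 lower with no replicate block, so they rest on the pairing by library. Leaving out 1 library gave 109 to 157 higher and 448 to 515 lower, with 109 higher without the IgG library. DESeq2 gave 152 and 484, and the remaining alternatives 130 to 185 higher and 388 to 585 lower. Without the block 19 of the 20 named genes lost their call, and without strict mural genes Enpp1 did.

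Between libraries, counts higher and lower in Acta2-high cells were 404 and 1194 for antibody over IgG and 941 and 1056 for IgG over Matrigel at 50 UMIs, 2109 and 4598, and 4262 and 3237, at 1 UMI, and 309 and 1019, and 1003 and 823, at a fold of 2. The log2 ratio of antibody over IgG turned to -1.64 for Prg4, -0.28 for Lbh and 0.53 for Hbb-bs at 0.2% Acta2, to 1.03 for Hba-a1 and 0.85 for Hbb-bs without high doublet scores, to -2.77 for Ccl2 without cells with 2 or more mural genes, and to 0.71 for Hba-a1 and 0.72 for Hbb-bs without the richest member cell; apart from the last 2, whose alternative removes that 1 cell, the cause was not tested. TMM scaling shifted the median log2 ratio of all genes to 0.02 for antibody over IgG and -0.03 for IgG over Matrigel. With 70 and 80 Acta2-high cells in the antibody and Matrigel libraries, ratios of genes found in few cells are set by single cells.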

Other observations

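Cells with under 1% collagen UMIs but at least 0.1% Acta2 were too few and too shallow to describe as a class. The antibody library held 8, the IgG library 28 and the Matrigel library 4, with median depths of 790, 822.5 and 595.5 UMIs. At that depth a single Acta2 UMI passes the cutoff, and 2, 8 and 1 of them held at least 3 Acta2 UMIs. Macrophage markers with at least 2 UMIs were found in 1, 11 and 0 of these cells, and mural markers with at least 2 UMIs in 0, 0 and 1. The single cell with mural markers, in the Matrigel library, held 28 UMIs of Myh11, the smooth muscle myosin heavy chain that was close to absent from the Acta2-high collagen-positive cells.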
